A study of Homo sapiens with 6 samples.

Results

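The 10 genes described here are the metallothioneins MT1A, MT1E, MT1F, MT1G, MT1H, MT1M, MT1X and MT2A, the zinc-sensing transcription factor MTF1 and the zinc exporter SLC30A1. They were chosen by symbol from a table of 60676 genes, because MT2A and MT1F were already known to be higher together after EHD1 knockdown in these libraries. RNA was sequenced from TC71, a Ewing sarcoma cell line, in 3 libraries with a Dox-inducible EHD1 shRNA (shEHD1+Dox, called the knockdown libraries) and 3 with a non-targeting shRNA (shNTC+Dox, the controls). EHD1 is an ATPase of endocytic recycling, and the comparison asks which mRNAs change when its level is lowered. All 6 libraries came from cells that carried a lentiviral construct and had received 0.5 µg/ml Dox for 3 days, so they share the vector and the drug, and cells without Dox were not analysed here. The lines were polyclonal stable pools. The sources used here do not say which EHD1 shRNA was sequenced, so an effect of the knockdown and an off-target effect of a hairpin cannot be told apart.

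Metallothioneins are small, cysteine-rich proteins that bind zinc, copper and cadmium and buffer free zinc in the cell. When free zinc rises, MTF1 binds short metal response elements in their promoters and raises their transcription, and SLC30A1, which moves zinc out across the plasma membrane, is controlled by the same factor. Glucocorticoids, oxidants and other stresses also raise metallothionein mRNA in many cell types, so metallothioneins are read both as zinc reporters and as stress genes.

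The libraries held 22711235 to 30582187 counts, and 29676 of the 60676 genes had no count in any of them. EHD1 fell from 27.2 ± 0.81 CPM, counts scaled for library size with edgeR's TMM factors, in the controls to 8.02 ± 1.18 CPM after knockdown (SD, n = 3 each), a log2 fold change of -1.76 ± 0.12 (SE; edgeR adjusted p = 1.35e-04). All 9 Ewing sarcoma markers described here were detected, from NKX2-2 at 11.0 to 17.5 CPM to PRKCB at 509 to 610 CPM. Of these, BCL11B, NPY1R, STEAP1 and PAX7 fell (log2 fold changes of -0.75, -0.45, -0.43 and -0.38), CD99 rose (0.33) and 4 did not pass. Over all genes tested, 8.75% fell and 8.59% rose at an edgeR adjusted p under 0.05. Among markers of other cell types, PTPRC, EPCAM, CDH1 and PECAM1 stayed at or below 0.403 CPM, while the fibroblast genes DCN and LUM were read at 2.16 to 5.45 and 1.16 to 2.90 CPM. DCN fell by 1.01 ± 0.19 on the log2 scale (edgeR adjusted p = 0.00778), and its part in the results was not tested. In bulk RNA, a change in the share of cells that express a gene and a change in the level per cell cannot be told apart. The labels do not say whether the 3 libraries of a group came from separate cultures, so the p-values measure the spread between these libraries, which may be technical. Control library 3 stood apart from the other controls over all genes, with a chi-square per degree of freedom of 26.5 and 28.1 against 5.61 between controls 1 and 2. Knockdown library 2 stood apart less, at 18.6 and 17.2 against 7.68 between knockdown libraries 1 and 3. Without control library 3, the log2 fold change was 1.44 for MT2A, 1.68 for MT1F and 1.1 for MT1X, and without knockdown library 2 it was 1.3, 1.89 and 0.95.

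Among the 10 genes, 3 metallothioneins were higher in shEHD1+Dox, MT2A and MT1F by more than 2-fold and MT1X by slightly less. MTF1 and SLC30A1 did not pass the threshold. MT1G was read in 3 of the 6 libraries, and the other 4 metallothioneins among the 10 genes had no count anywhere. Because the genes were chosen with this comparison known, the members' values are a description and carry no test.

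Promoters were searched for letters that match the metal response element, and some of them are shown first. The core of the metal response element was searched as TGCACNC and TGCGCNC on both strands, in the 250 bases before the start of each gene in the RefSeq promoter table (GRCh38.p14). The table held 5 of the 10 genes: MT2A, MT1X, MT1H, SLC30A1 and MTF1. It held no promoter of MT1F, MT1A, MT1E, MT1G or MT1M. The sequences below run 5′ to 3′ on the gene's strand, and capitals mark each match. MT2A and MT1X are shown because their mRNA was higher, MT1H because it had no count, and SLC30A1 because it is an exporter known as an MTF1 target. They lie at chr16:56608334-56608583 (+), chr16:56682220-56682469 (+), chr16:56669564-56669813 (+) and chr1:211579162-211579411 (-), in that order.
MT2A promoter: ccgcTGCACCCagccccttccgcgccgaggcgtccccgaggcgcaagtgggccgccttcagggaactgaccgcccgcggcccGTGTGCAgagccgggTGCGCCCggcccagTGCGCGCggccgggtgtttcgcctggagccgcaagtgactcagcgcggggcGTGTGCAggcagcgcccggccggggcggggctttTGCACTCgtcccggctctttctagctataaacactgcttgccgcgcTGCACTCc
MT1X promoter: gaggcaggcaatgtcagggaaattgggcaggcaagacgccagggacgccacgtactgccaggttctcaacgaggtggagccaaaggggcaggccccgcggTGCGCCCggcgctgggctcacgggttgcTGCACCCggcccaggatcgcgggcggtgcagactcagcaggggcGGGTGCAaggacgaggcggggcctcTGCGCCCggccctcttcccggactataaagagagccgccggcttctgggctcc
MT1H promoter: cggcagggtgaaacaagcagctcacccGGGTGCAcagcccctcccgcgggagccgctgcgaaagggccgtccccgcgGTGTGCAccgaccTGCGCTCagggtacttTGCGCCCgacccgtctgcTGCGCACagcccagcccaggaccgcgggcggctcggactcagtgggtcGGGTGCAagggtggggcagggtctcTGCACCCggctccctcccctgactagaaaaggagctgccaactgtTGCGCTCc
SLC30A1 promoter: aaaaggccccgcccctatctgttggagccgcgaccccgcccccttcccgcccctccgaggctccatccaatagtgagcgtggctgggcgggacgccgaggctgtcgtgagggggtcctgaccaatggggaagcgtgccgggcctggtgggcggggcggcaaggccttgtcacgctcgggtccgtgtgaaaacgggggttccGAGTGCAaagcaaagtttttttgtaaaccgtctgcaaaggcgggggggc

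MT2A held 7 matches, whose first bases lay 246, 168, 153, 139, 88, 54 and 8 bases before the start. MT1X held 4, at 150, 122, 78 and 53 bases, and MT1H held 8, of which those at 78 and 53 bases stood where MT1X had them. SLC30A1 held 1 match, at 49 bases, and MTF1 held none. Of the 35116 promoters of this length in the table, 24.8% held at least 1 match, 0.37% at least 4 and 0.0313% at least 7. The antioxidant response element core TGACNNNGC, also searched on both strands, had 1 match each in MT2A, MT1X and SLC30A1, against at least 1 in 10.9% of promoters. TATAAA on the gene's strand stood in MT2A and MT1X and in 6.8% of all promoters, and was not found in MT1H. A match of letters is no measurement of binding. MT1H, with no count, had more matches than MT2A or MT1X.

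**Figure D1:**
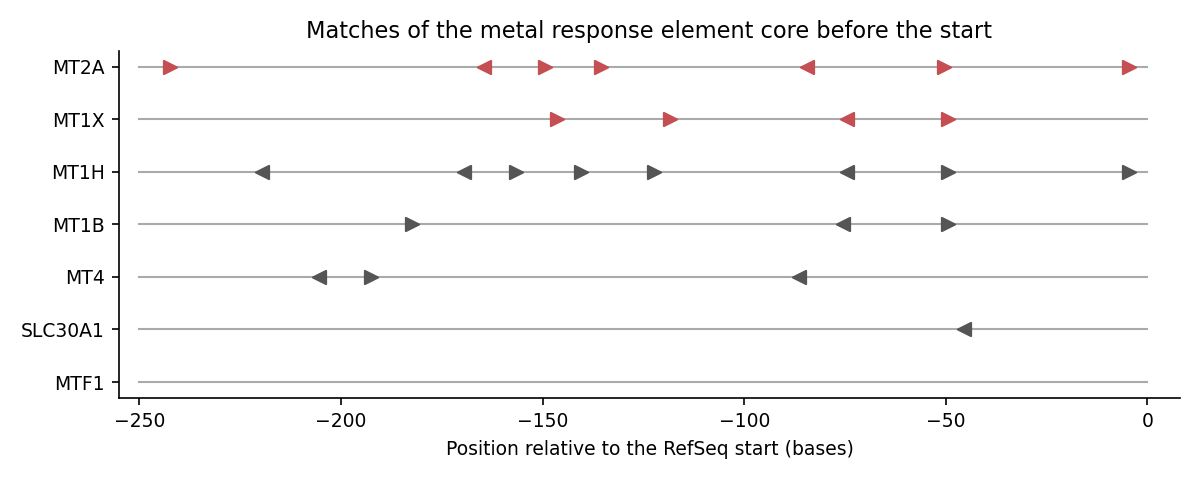
Position of each match of the metal response element core in the 250 bases before the RefSeq start, in bases on the horizontal axis, for 5 of the 10 genes and for the metallothioneins MT1B and MT4. Each arrowhead is 1 match and points right for a match on the gene's strand and left for the opposite strand; red marks MT2A (7 matches) and MT1X (4), and MTF1 has none.

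MT2A (ENSG00000125148; GRCh38 chromosome 16, 56608584 to 56609497, plus strand) encodes the main metallothionein of many human tissues and carried most of the family's reads. The 3 controls held 739, 882 and 904 MT2A counts, and the 3 knockdown libraries held 2240, 1958 and 2655. After scaling, the levels were 28.1, 31.9 and 40.5 CPM against 78.7, 80.0 and 85.8 CPM. The groups did not overlap, and the lowest knockdown library was well above the highest control. The mean went from 33.5 ± 6.36 to 81.5 ± 3.78 CPM (SD, n = 3 each), a log2 fold change of 1.29 ± 0.12 (SE), or 2.44-fold. When any 1 library was left out, the log2 fold change lay between 1.17 and 1.44. No 75-base stretch of its exons occurred in another annotated transcript, so reads that match exactly fit MT2A alone.

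MT1F (ENSG00000198417; chromosome 16, 56657731 to 56660698, plus strand), an MT1 isoform that lies in the same cluster, had far fewer reads and a higher fold. It had 44, 56 and 26 counts in the controls against 159, 138 and 202 after knockdown. These are 1.67, 2.02 and 1.16 CPM against 5.58, 5.64 and 6.53 CPM. The shEHD1+Dox libraries were close to each other and all far above the controls. The mean was 1.62 ± 0.432 CPM in the controls and 5.92 ± 0.529 CPM after knockdown. This is a log2 fold change of 1.86 ± 0.23, or 3.63-fold, and it lay between 1.68 and 2.05 when any 1 library was left out. None of its 75-base stretches was shared with another transcript either.

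MT1X (ENSG00000187193; chromosome 16, 56682470 to 56684196, plus strand), the MT1 gene at the far end of the cluster, had 85, 159 and 131 counts in the controls against 254, 240 and 315 after knockdown. The levels were 3.23, 5.74 and 5.87 CPM against 8.92, 9.81 and 10.2 CPM. Again the groups did not overlap, and control library 1 was lower than the other controls. The mean moved from 4.95 ± 1.49 CPM in the controls to 9.64 ± 0.647 CPM after knockdown, a log2 fold change of 0.96 ± 0.22, or 1.95-fold. MT1X left the threshold when shEHD1+Dox library 1, 2 or 3 was left out, with edgeR adjusted p-values of 0.0516, 0.0643 and 0.0754 and log2 fold changes of 1.02, 0.95 and 0.92. Of its 1871 stretches of 75 bases, 275 (14.7%) also occurred in other transcripts, so a part of its reads could be divided differently. The largest number was shared with an unnamed long noncoding gene that overlaps MT1X (ENSG00000259827), and fewer with MT1G and the pseudogene MT1XP1. That noncoding gene had no count in any library.

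MT1G (ENSG00000125144; chromosome 16, 56666730 to 56668065, minus strand) had 14, 0 and 16 counts in the controls against 0, 0 and 57 after knockdown. It was listed with no count in 3 libraries, 1 control and 2 knockdown, and its highest value was in knockdown library 3 at 1.84 CPM. The groups overlapped fully, and its log2 fold change of 0.64 ± 1.74 had no stable direction: with replicate number as a block it was -0.39. MT1E (ENSG00000169715, starting at 56625475), MT1M (ENSG00000205364, at 56632659), MT1A (ENSG00000205362, at 56638666) and MT1H (ENSG00000205358, at 56669814), all MT1 isoforms of the same cluster, had 0 counts in all 6 libraries. A limit of 3 counts corresponds to 0.0969 to 0.134 CPM in a single library and to 0.0187 CPM over the 6 together, for counting error only.

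MTF1 (ENSG00000188786; chromosome 1, 37809574 to 37859592, minus strand), the factor that binds the metal response element, had 745, 775 and 659 counts in the controls against 889, 809 and 938 after knockdown. This gave 28.3, 28.0 and 29.5 CPM against 31.2, 33.1 and 30.3 CPM. The groups lay next to each other without overlapping. The mean went from 28.6 ± 0.80 CPM to 31.5 ± 1.41 CPM, and the log2 fold change was 0.14 ± 0.08.

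SLC30A1 (ENSG00000170385; chromosome 1, 211571568 to 211579161, minus strand), the plasma membrane zinc exporter ZnT1, had 1344, 1543 and 1619 counts in the controls against 1279, 1395 and 1552 after knockdown. The levels were 51.1, 55.7 and 72.5 CPM against 44.9, 57.0 and 50.1 CPM. The groups overlapped, and control library 3 stood above all the others. The mean was 59.8 ± 11.3 CPM for the controls and 50.7 ± 6.07 CPM for the knockdown, and the log2 fold change was -0.24 ± 0.14, or -0.08 without control library 3. Control library 3 also had the highest control level of MT2A.

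**Figure D2:**
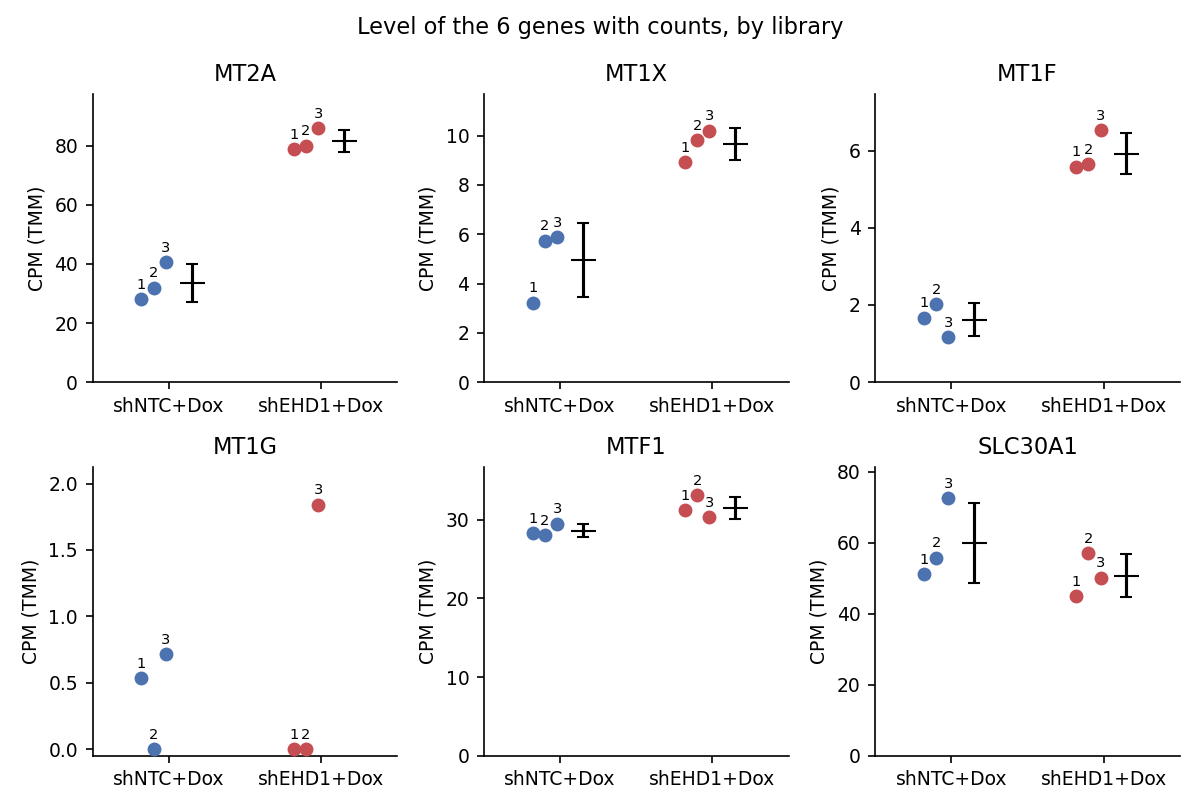
Level in CPM (TMM-scaled, linear vertical axes that differ between panels) of the 6 genes with counts, with 1 point per library, shNTC+Dox in blue and shEHD1+Dox in red, numbered by replicate; black lines give the mean ± SD of 3 libraries and are left out for MT1G, which had no count in 3 libraries. MT2A, MT1X, MT1F and MTF1 do not overlap between groups, as is so for 39.3% of all genes tested, and MT1G and SLC30A1 do.

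Of the 10 genes, 6 had enough counts to be tested (at least 10 in at least 3 libraries). At an edgeR adjusted p under 0.05, 3 of them were higher and 0 lower, where 17.3% of the 16785 genes tested passed, 8.59% higher and 8.75% lower. At an unadjusted p under 0.05, 0 of the 6 were lower with edgeR, and DESeq2 called 3 higher and 0 lower. Over all genes DESeq2 called 23.4% in either direction, and no share at an unadjusted p is given. With a fold change of at least 2 required as well, 2 were higher and 0 lower, where 2.82% of all genes passed, 1.08% higher and 1.74% lower. MT2A, MT1F, MT1X and MTF1 had all knockdown libraries above all controls, as had 19.9% of all genes. All knockdown libraries lay below all controls for 19.4% of genes, so 39.3% did not overlap. Nothing is read from these counts, since the comparison was used to choose the genes. The members close to the 2-fold threshold were MT2A inside it at 1.29 on the log2 scale and MT1X outside it at 0.96.

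MT2A and MT1F were chosen for their rise, so their places by fold change follow from the choice and are a description only. Of the tested genes, 4177 had a mean level over the 6 libraries at or above the 57.5 CPM of MT2A. That mean includes the knockdown libraries, at 81.5 CPM against 33.5 CPM in the controls. Among the 4177, only MT2A and CUBN, the endocytic receptor cubilin, reached the log2 fold change of MT2A. CUBN stood at a mean of 77.7 CPM, with a log2 fold change of 1.94 ± 0.14. By fold change alone, MT1F was 65th, MT2A 222nd and MT1X 461st among the 16785 genes.

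Divided by the merged exon length of each gene, the control levels fell in the order MT2A (36.6 ± 6.95 CPM per kb), SLC30A1 (10.1 ± 1.91), MTF1 (3.58 ± 0.1), MT1X (2.86 ± 0.861), MT1F (0.874 ± 0.233) and MT1G (0.554 ± 0.495). MTF1 and MT1X differed there by less than the SD of MT1X, and MT1F and MT1G by less than the SD of MT1G. In shEHD1+Dox, MT2A stood at 89.2 ± 4.13, SLC30A1 at 8.6 ± 1.03, MT1X at 5.58 ± 0.374, MTF1 at 3.95 ± 0.176, MT1F at 3.19 ± 0.285 and MT1G at 0.817 ± 1.42 CPM per kb. MT1X stood above MTF1 there. Among 16715 genes ranked by level per kb, MT2A went from place 1089 to 356, MT1X from 9211 to 6777 and MT1F from 12490 to 8891. These places and the orders above depend on the lengths used. The merged exons of MT2A and MT1X, 914 and 1727 bases, cover each gene from start to end. Any intron of the usual mRNA is thus counted in the length, which would lower the level per kb.

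The other 12 metallothionein genes and pseudogenes in the table had few counts or none. The pseudogene MT1XP1 had 3, 0 and 2 counts in the controls against 2, 8 and 6 after knockdown. MT3, the brain isoform, had 0, 0 and 3 counts against 4, 0 and 0, and MT1P3 had 1, 1 and 0 against 0, 1 and 0. The remaining 9, which include MT4 and MT1B, had no count in any library. The summed count of all 20 metallothionein genes, which does not depend on how counted reads are divided among these genes, was 886, 1098 and 1082 in the controls against 2659, 2345 and 3235 after knockdown. In CPM the sum went from 40.6 ± 7.44 to 97.9 ± 5.85, a log2 fold change of 1.27 ± 0.12, or 2.42-fold, and it lay between 1.15 and 1.42 when any 1 library was left out.

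The share of MT2A in this sum overlapped between the groups. It was 83.4%, 80.3% and 83.5% of the family's counts in the controls and 84.2%, 83.5% and 82.1% in the knockdown. MT1X gave 9.59%, 14.5% and 12.1% against 9.55%, 10.2% and 9.74%, so its knockdown shares lay at the low end of the controls. MT1F gave 4.97%, 5.1% and 2.4% against 5.98%, 5.88% and 6.24%, with every knockdown share above every control share. Per 1000 MT2A counts there were 59.5, 63.5 and 28.8 MT1F counts in the controls against 71.0, 70.5 and 76.1 after knockdown. The spread of these ratios among the controls was wide, with control library 3 at less than the other controls, and the knockdown libraries were close together.

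MT1A, MT1E, MT1F, MT1G, MT1H, MT1M, MT1X and MT2A lie with 7 other metallothionein genes between positions 56565073 and 56684196 of chromosome 16. Within 500 kb of this cluster, 9 other tested genes are described, of which 2 rose and 1 fell, with a median log2 fold change of 0.00 against 0.0008 over all genes. Of all genes tested, 8.59% rose and 8.75% fell. HERPUD1, an endoplasmic reticulum stress gene, rose by 0.70 ± 0.07 on the log2 scale, from a mean of 30.5 CPM to 49.8 CPM (edgeR adjusted p = 4.37e-04). BBS2, a ciliary trafficking subunit, rose by 0.42 ± 0.12 on the log2 scale (edgeR adjusted p = 0.0406). The noncoding gene AC009090.6 fell by 0.85 ± 0.23 on the log2 scale (edgeR adjusted p = 0.0331). HERPUD1 passed under all 11 alternatives, while BBS2 and AC009090.6 lost their calls under 6 and 7 of them. Both failed with the replicate block, without control library 1 or 2 and without knockdown library 1, 2 or 3, with edgeR adjusted p-values of up to 0.146 and 0.1. NUP93, the closest gene beyond MT1X that was tested, had a log2 fold change of 0.00. On the other side BBS2, at 0.42, was the closest and reached into the span of the cluster. OGFOD1 and NUDT21, farther out on that side, had -0.12 and -0.07.

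**Figure D3:**
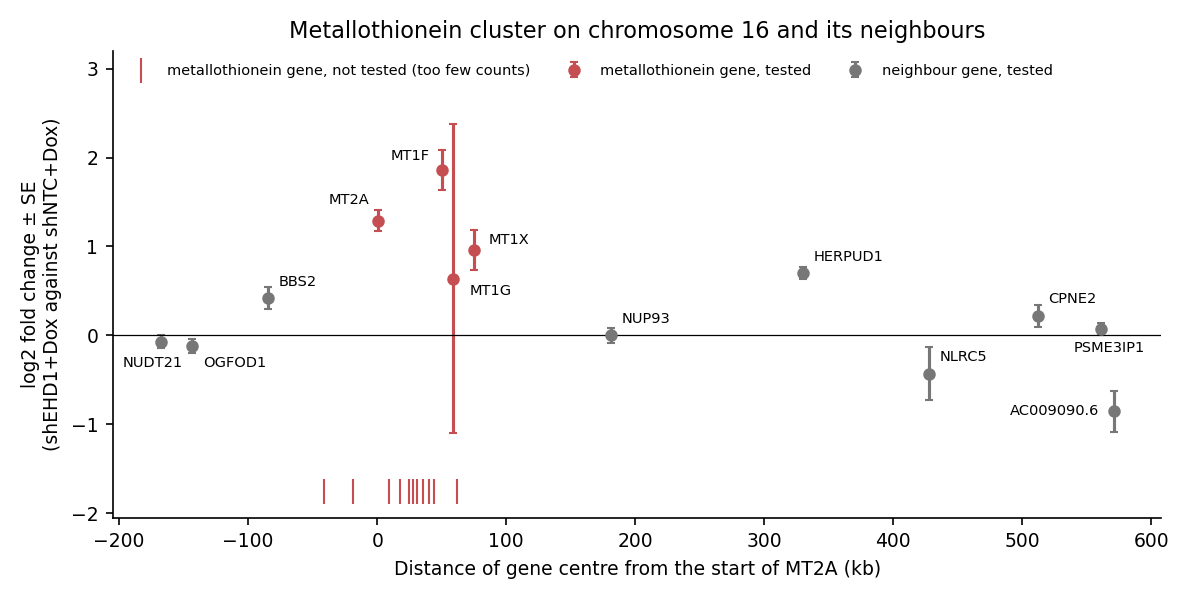
Log2 fold change ± SE (shEHD1+Dox against shNTC+Dox) of tested genes in the metallothionein cluster and of 9 tested genes within 500 kb of it, against the distance of each gene's centre from the start of MT2A in kb; red points are metallothioneins, gray points are neighbours, and red ticks are metallothionein genes with too few counts to test. MT2A, MT1F and MT1X lie between 0.96 and 1.86, and the highest neighbour, HERPUD1, is at 0.70.

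The other genes of zinc transport did not move one way. Of 9 other SLC30 exporters, 6 were tested, 1 rose and 1 fell, and their median log2 fold change was 0.12. Over all genes tested, 8.59% rose and 8.75% fell. SLC30A4, which loads zinc into vesicles, rose by 0.68 ± 0.16 on the log2 scale, from a mean of 9.07 ± 1.9 CPM to 14.5 ± 0.96 CPM (edgeR adjusted p = 0.0227). It lost the call without control library 1 or without knockdown library 1, 2 or 3 (edgeR adjusted p = 0.0569, 0.0849, 0.0666 and 0.0589). SLC30A3, the transporter of zinc into synaptic vesicles, fell by 1.12 ± 0.19 on the log2 scale, from a mean of 4.62 ± 0.209 CPM to 2.12 ± 0.298 CPM (edgeR adjusted p = 0.00551).

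Of 14 SLC39 importers, 11 were tested, 3 rose and 0 fell, with a median of -0.035, where 8.59% of all genes rose and 8.75% fell. At an unadjusted edgeR p under 0.05, 3 were higher and 2 lower, and DESeq2 called 3 higher and 1 lower. Over all genes DESeq2 called 23.4%, and no share at an unadjusted p is given. SLC39A8, which brings in zinc, manganese and cadmium, rose by 0.44 ± 0.07 on the log2 scale, from a mean of 57.7 ± 1.52 CPM to 78.5 ± 2.48 CPM (edgeR adjusted p = 0.00308), and kept its call under all 11 alternatives. SLC39A4, the zinc importer of the gut, had 0.38 ± 0.10 (edgeR adjusted p = 0.0353) and SLC39A11 had 0.29 ± 0.09 (edgeR adjusted p = 0.0485). These passed under 6 and 2 of the 11 alternatives, with edgeR adjusted p-values of up to 0.14 and 0.16 without knockdown library 3. SLC39A4 failed with the block, without control library 1 or 2 and without knockdown library 1 or 3, and SLC39A11 when any 1 library was left out. SLC39A1, a widely expressed importer, had 1 knockdown library at 36.8 CPM, far from the others at 87.0 and 89.0, and did not pass (log2 fold change -0.49 ± 0.34, edgeR adjusted p = 0.393).

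The lists for other metals and stresses that can raise metallothioneins were examined in the same way. With DESeq2, 23.4% of 15473 genes passed. No share of all genes is given for unadjusted p-values, so nothing is read from the unadjusted counts. Over these and the zinc transporters, 14 of 77 tested list genes (18.2%) passed, against 17.3% of all genes. Without control library 3 it was 24 of 77 (31.2%) against 21.8%, and without knockdown library 1 or 3 it was 5 (6.49%) against 8.15% and 6 (7.79%) against 8.05%. None of 11 tested copper genes passed with edgeR or DESeq2, and 1 had an unadjusted edgeR p under 0.05. Of 10 tested iron genes, 1 rose (2 rose and 1 fell with DESeq2), the iron regulatory protein IREB2, by 0.30 ± 0.07 on the log2 scale (edgeR adjusted p = 0.0209). It lost the call without control library 1 or without knockdown library 1, 2 or 3 (edgeR adjusted p = 0.0664, 0.0655, 0.051 and 0.0578), and without control library 3 the number of iron genes that passed was 3. Of 15 NRF2 targets, all tested, 2 rose and 0 fell, with a median of -0.0025. The number that passed was 5 without control library 3, 0 without knockdown library 1 and 1 without any other single library. At an unadjusted edgeR p under 0.05, 2 were higher and 2 lower, and DESeq2 called 2 higher and 0 lower. HMOX1, the heme oxygenase, rose by 0.79 ± 0.16 on the log2 scale, from a mean of 3.97 ± 0.393 CPM to 6.85 ± 0.638 CPM (edgeR adjusted p = 0.0122, or 0.064 without knockdown library 1). ME1, the malic enzyme, had 0.25 ± 0.07 (edgeR adjusted p = 0.0412) and passed under 5 of 11 alternatives. It failed under the block and without control library 1 or 2 or knockdown library 1, 2 or 3.

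Of all genes tested, 50.1% were higher, 8.59% rose and 8.75% fell, with a median log2 fold change of 0.0008. Of 12 tested heat shock genes, 4 were higher, 1 rose and 2 fell, with a median of -0.21. The number that passed was 4 without control library 3 and 1 without knockdown library 1 or 3. DNAJA1 and DNAJB1, both HSP40 co-chaperones, fell by 0.94 ± 0.22 and 0.55 ± 0.10 on the log2 scale (edgeR adjusted p = 0.0319 and 0.00627), and HSPB1, the small heat shock protein HSP27, rose by 0.33 (edgeR adjusted p = 0.0214). DNAJA1 failed when genes with low counts were kept (edgeR adjusted p = 0.0808) and without knockdown library 1 or 3 (edgeR adjusted p = 0.0901 and 0.0962), and HSPB1 without control library 1 or 2 or knockdown library 1 or 3. Of 12 glucocorticoid receptor targets, 9 were higher, 2 rose and 1 fell, with a median of 0.35. The number that passed, 3, was 7 without control library 3 and 2 without knockdown library 1, 2 or 3. At an unadjusted edgeR p under 0.05, 5 were higher and 1 lower, and DESeq2 called 3 higher and 1 lower. Over all genes DESeq2 called 23.4%, and no share at an unadjusted p is given, so nothing is read from these counts. TSC22D3, a glucocorticoid-induced leucine zipper protein, went from 17.1 ± 4.6 to 29.0 ± 3.63 CPM (log2 fold change 0.75 ± 0.20, edgeR adjusted p = 0.0339), and lost the call without knockdown library 1, 2 or 3 (edgeR adjusted p = 0.116, 0.055 and 0.0988). SESN1, a sestrin, rose by 0.40 ± 0.08 (edgeR adjusted p = 0.0089), and BCL6, a transcriptional repressor, fell by 0.99 ± 0.09 on the log2 scale (edgeR adjusted p = 4.40e-04).

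**Figure D4:**
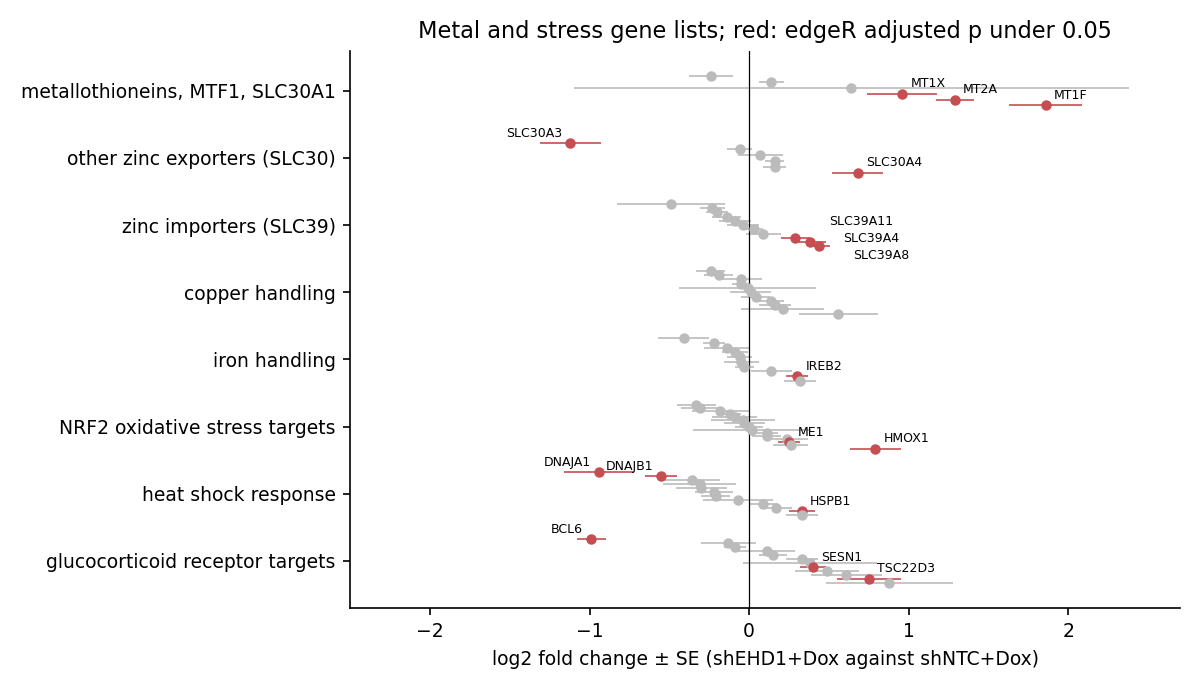
Log2 fold change ± SE (shEHD1+Dox against shNTC+Dox) of every tested gene of the 10 described genes and of 7 lists of metal and stress genes, 1 point per gene, red where the edgeR adjusted p was under 0.05. The metallothioneins reach 1.86 (MT1F), and the named genes of the other lists lie between -1.12 (SLC30A3) and 0.79 (HMOX1). ZBTB16, a glucocorticoid receptor target that did not pass and is not named in the figure, is at 0.88 ± 0.40.

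Genes were also counted by their number of metal response element matches. Those higher after knockdown were 50.4%, 51.0% and 49.8% of the tested genes with at least 1, 2 and 3 matches (4358, 1326 and 327 genes), against 51.0% of the 10991 tested genes with a promoter in the table. Of 72 tested genes with at least 4 matches in their promoter, 26 (36.1%) were higher, 5 rose and 8 fell, and their median log2 fold change was -0.12, against 0.008 over the 10991, of which 1121 rose and 1077 fell. The 5 that rose were MT2A, MT1X, the sterol synthesis regulator INSIG1 at 0.86, the endosomal syntaxin STX12 at 0.29 and the diacylglycerol kinase DGKG at 0.27. The 3 tested genes with more matches than MT2A, namely CARS2 with 12, RNPC3 with 10 and ZNF565 with 9, had log2 fold changes of -0.13, -0.42 and -0.29 and did not pass. INSIG1 lost its call without control library 1 or without any of the knockdown libraries (edgeR adjusted p up to 0.114), and when genes with low counts were kept. STX12 and DGKG lost theirs without control library 1 or 2 or any knockdown library (edgeR adjusted p up to 0.13 and 0.119) and with the replicate block. By log2 fold change, MT2A and MT1X were exceeded in this group by LINC00933 at 1.69 ± 0.77 and CKLF-CMTM1 at 1.42 ± 0.54, which did not pass.

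Across the 6 libraries, the log2 levels of MT2A and MT1X had a Pearson correlation of 0.937, MT2A and MT1F of 0.905, and MT1X and MT1F of 0.826. MT2A had 0.864 with MTF1 and -0.35 with SLC30A1. With the list genes HMOX1 and TSC22D3, MT2A had 0.973 and 0.689, MT1X 0.898 and 0.578, and MT1F 0.891 and 0.916. These values contain the difference between the groups and are a description only. Of 11286 genes with a mean of at least 5 CPM, those most like MT2A by this measure were UBE2R2, CADPS2, CPT1A, VGLL4 and COPS8, with correlations of 0.9956 to 0.9973. Those most like MT1F were GAB2, PACS1, ERAP2, KDM6B and CAMK2D, with 0.9972 to 0.9983. The 2 lists shared no gene.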

How the data were processed

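Total RNA from 6 TC71 libraries was sequenced as paired reads of 75 bases after TruSeq v2 preparation, a kit that does not mark strand. The authors deposited a table of whole-number read counts per Ensembl gene, with no normalization. The submitters' notes name STAR 2.7.3a, DESeq2 and hg38, while the published methods name hisat2 and StringTie, and how reads that fit several genes were counted is not given in the sources used here. Groups came from the sample titles. Counts were fitted with edgeR 4.0.16 in R 4.3.3 (TMM, quasi-likelihood with robust dispersion) after a filter of 10 or more counts in 3 or more libraries, which left 16785 genes. Adjustment was by Benjamini-Hochberg over all of these. A gene rose or fell when its adjusted p was below 0.05, and a 2-fold change was also required where stated. The SE is the log2 fold change divided by the square root of F. The fits were tested on simulated data.

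The 10 genes, the lists and the markers were chosen with earlier results of these data known. Named list genes were those with the 3 largest rises and 3 largest falls past the threshold, and the genes most like MT2A and MT1F were the 5 with the highest correlation. The neighbours, the motifs, CUBN, SLC39A1 and the ranks were chosen after values were seen. Gene positions and lengths came from GENCODE 44, which held 60357 of the table's gene IDs. Alternatives were DESeq2 1.42.0, its size factors, 2 other count filters, a replicate block and each library left out. Same-numbered libraries did not deviate together, with correlations of 0.072, -0.0593 and -0.0448, where unlike-numbered pairs had -0.0817 to 0.1103. The numbers were thus not used as pairs in the main fit. With 3 libraries per group, these values cannot settle whether libraries shared a batch. One marker and a neighbour of the cluster are not reported here.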

Additional observations from a re-analysis of the deposited data

How the results depend on the processing

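MT2A, MT1F and the summed metallothionein count kept their direction and their side of the threshold under all 11 alternatives, and MTF1 and SLC30A1 passed under none. MT2A and MT1F were chosen for their rise in these same libraries, and MT2A gave most of the sum. Their passing is thus a description and carries no test. MT1X lost its call without each knockdown library in turn (log2 fold changes of 1.02, 0.95 and 0.92), and over all single libraries left out its log2 fold change ranged from 0.73 to 1.1. The count of genes past both thresholds, 473, was 293 without knockdown library 3 and at most 452 without another library. It was 365 with the replicate block, 478 by DESeq2, 472 with DESeq2's size factors, 470 with no filter and 400 with at least 10 counts in every library. With the replicate block, the log2 fold change was 1.30 for MT2A, 1.88 for MT1F and 1.28 for the sum, and it turned from 0.64 to -0.39 for MT1G. MT1G could not be fitted under a filter on every library or without some libraries, and DESeq2 gave it no adjusted p. Of 77 tested list genes, 14 passed (18.2%, against 17.3% of all genes). The number was 11 with the block (14.3% against 10.5%) and 19 of 76 by DESeq2 (25.0% against 23.4%). With 1 library left out it went from 5 without knockdown library 1 (6.49% against 8.15%) to 24 without control library 3 (31.2% against 21.8%). Of the 14 themselves, 11 passed with the block and 5 to 13 without 1 library. The causes were not tested. Counts as low as those of MT1F and MT1G limit the precision of their values.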
